A study of Sus scrofa with 14 samples.

Results

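The glucose and fructose transporters measured here are SLC2A5, SLC5A1, SLC2A1 and SLC2A3. They were taken by name, as all probe sets of the Affymetrix porcine array whose only gene symbol is a member. That gave 4 probe sets, 1 for each of the 4 genes, among 6765 genes with a symbol of their own on the array. No probe set with several symbols named a member, so a second probe set could not be set beside any of the 4. The array annotation that gave the symbols may be out of date. Its gene number for SLC2A1 is not that of SLC2A1 in the pig gene table of assembly Sscrofa11.1, while those of the other 3 are.

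The tissue was uterus of 14 Iberian x Meishan F2 sows, the second generation of a cross of an Iberian and a Chinese pig breed. All were in the fifth pregnancy and were slaughtered at days 30 to 32 of it. The labels class 5 sows as high prolificacy and 9 as low prolificacy and give 1 array per sow, with each array a separate animal. They do not say how prolificacy was scored, which layer of the uterine wall was taken or how near to a conceptus. The study asked which uterine transcripts differ between the classes of sows.

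Hexoses cross cell membranes on carriers of 2 kinds. The SLC2A carriers let a sugar move down its gradient: SLC2A1 (GLUT1) and SLC2A3 (GLUT3) carry glucose, and SLC2A5 (GLUT5) carries fructose. SLC5A1 (SGLT1) brings glucose in together with sodium, against its gradient, and depends on the sodium pump to keep sodium low in the cell. The pig has an epitheliochorial placenta, in which uterine epithelium and chorion stay apposed, so maternal glucose must pass the uterine epithelium on such carriers. The pig conceptus turns part of that glucose into fructose by way of sorbitol, and its fetal fluids are known for holding much fructose.

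Values are log2 levels after RMA (robust multi-array average), a method that evens out intensity distributions between arrays and gives 1 value per probe set. The array medians lay between 5.72 and 5.84. Without detection calls, a level under that median may lie near background, which limits any fold change drawn from it. Differences are high minus low prolificacy from limma, with p-values adjusted over all 23999 probe sets and a call at an adjusted p under 0.05. The SE is limma's moderated standard error. A level of 1 probe set was not set against that of another, since probes differ in brightness.

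All 4 transporters were called and all 4 were higher in high prolificacy. The 4 were chosen with earlier results of these data known, so this count is not an independent test. Over all 23999 probe sets, 7.85% were called, 3.5% as higher and 4.35% as lower in high prolificacy. The fructose carrier SLC2A5 rose 5.30-fold, with a 95% confidence interval of 3.25 to 8.65. The sodium-coupled glucose carrier SLC5A1 rose 6.58-fold, with an interval of 2.32 to 18.6. SLC2A1 rose 3.22-fold (1.59 to 6.52) and SLC2A3 rose 1.87-fold (1.43 to 2.45). The intervals of SLC2A5 and SLC2A3 do not overlap, and no test was made of whether 1 carrier differed more than another.

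The same arrays differed in markers of whole tissue layers. Of 16 uterine epithelium markers on the array, 8 were called higher and 0 lower in high prolificacy. All 15 smooth muscle markers were called lower, and the other 8 epithelium markers were not called. Among the 6765 genes, each by its brightest probe set, 5.34% were called higher and 5.42% lower. The mean of the epithelium list, each gene centred over the 14 arrays, was between 0.62 and 1.56 in the high prolificacy arrays and between -2.32 and 0.25 in the low prolificacy arrays, with the lowest values in low 7 and low 9. The smooth muscle mean was between -3.46 and -0.092 in the high prolificacy arrays, the highest of them high 1, and between 0.71 and 1.84 in the low prolificacy arrays. In whole tissue, more cells of a type and more RNA per cell cannot be told apart, so each transporter is given below with its difference after the list means were entered as covariates.

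**Figure D1:**
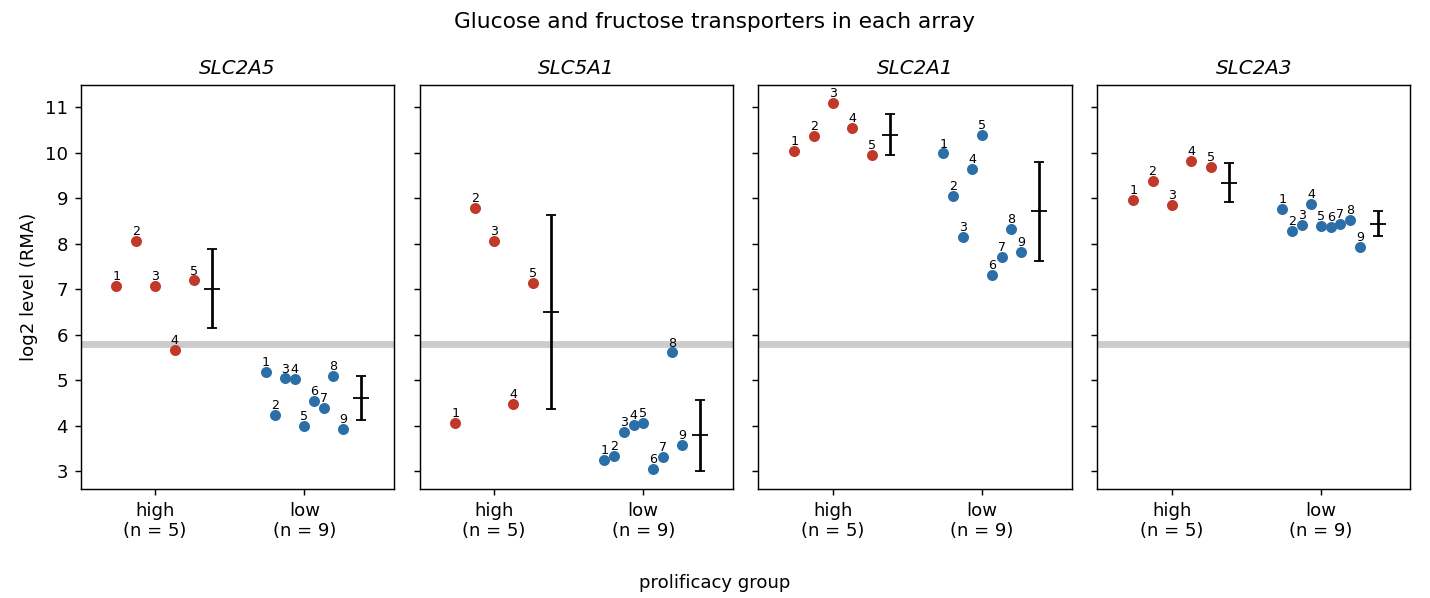
Log2 level (RMA) of the 4 transporters in each array, with 5 high prolificacy arrays on the left and 9 low prolificacy arrays on the right of each panel; numbers are the labels' replicate numbers, the black bar is the mean and SD, and the grey band spans the array medians from 5.72 to 5.84. SLC2A5 separates the groups, SLC5A1 is high in only 3 of the 5 high prolificacy arrays, and SLC2A1 spreads widely within low prolificacy.

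SLC2A5 separated the groups fully. Its log2 level was 7.07, 8.06, 7.08, 5.67 and 7.19 in high 1 to high 5, against a lowest value of 3.93, a median of 4.54 and a highest value of 5.18 in the 9 low prolificacy arrays. The lowest high prolificacy array, high 4, lay 0.49 above the highest low prolificacy array. Over all probe sets, 0.904% had every high prolificacy array above every low prolificacy array. The level averaged 7.01 ± 0.86 across the high prolificacy arrays (SD, n = 5), against 4.61 ± 0.49 across the low prolificacy arrays (SD, n = 9). The difference was 2.41 ± 0.33 (SE, limma adjusted p = 0.0012).

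All 9 low prolificacy arrays and high 4 lay under their array medians for SLC2A5, while the other 4 high prolificacy arrays lay above. The low prolificacy level may therefore be near background. In each of the 14 fits that left out 1 array SLC2A5 kept its call, with a difference between 2.15 and 2.74 and a limma adjusted p of at most 0.0055. With the epithelium mean as a covariate the difference was 1.83 ± 0.46 (SE, limma adjusted p = 0.42, unadjusted p = 0.0015), and with the smooth muscle mean it was 2.29 ± 0.84 (SE, limma adjusted p = 1.00, unadjusted p = 0.017). Neither was called. The epithelium mean held 55.2% of the variance of the group term and the smooth muscle mean 83.5%, which widens the errors of these fits, and over all probe sets they called 2 and 0.

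SLC5A1 did not move as a group. Its log2 level was 4.05, 8.78, 8.06, 4.48 and 7.13 in high 1 to high 5, against a lowest value of 3.06, a median of 3.58 and a highest value of 5.61 in low prolificacy. High 2, high 3 and high 5 lay above all 9 low prolificacy arrays, while high 1 and high 4 lay within the low prolificacy range. The value of high 1 equalled that of low 5, and the highest low prolificacy array, low 8, lay above both high 1 and high 4.

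The SLC5A1 level averaged 6.50 ± 2.13 across the high prolificacy arrays (SD, n = 5), against 3.78 ± 0.77 across the low prolificacy arrays (SD, n = 9), and differed by 2.72 ± 0.70 (SE, limma adjusted p = 0.028). Only the 3 upper high prolificacy arrays stood above their array medians, so for the other 11 arrays a level near background is possible. The call was lost without high 2 (limma adjusted p = 0.090), high 3 (0.10), high 5 (0.072) or low 6 (0.053). Without high 1 the fold was 10.1, and the difference over the 14 fits ran from 2.15 to 3.33.

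With the epithelium mean as a covariate SLC5A1 differed by 1.56 ± 1.00 (SE, limma adjusted p = 1.00, unadjusted p = 0.14). With the smooth muscle mean it differed by -1.41 ± 1.30 (SE, limma adjusted p = 1.00, unadjusted p = 0.30), so the direction turned. High 1 and high 4, the arrays without a raised SLC5A1 level, also had the lowest epithelium means of the high prolificacy group, 0.62 and 0.65, and those of the other 3 arrays were 1.37 to 1.56. They also had the highest means of the trophoblast and fetal membranes list, 0.94 and 3.11, against -0.86 to -0.063 in the other 3. This split was not particular to these lists. High 1 and high 4 also had the highest smooth muscle, stromal fibroblast, blood endothelium and red blood cell means of the high prolificacy group. Their neutrophil means were the lowest of that group, while the macrophage and dendritic cell mean did not split the arrays so. With the trophoblast mean as a covariate the SLC5A1 difference was 3.43 ± 0.54 (SE, limma adjusted p = 0.0020). The part of these tissue markers in the SLC5A1 pattern was not tested further.

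SLC2A1, the carrier of basal glucose uptake in most cells, was well above the array medians in all 14 arrays. Its log2 level was 10.04, 10.37, 11.08, 10.54 and 9.95 in high 1 to high 5, against a lowest value of 7.32, a median of 8.33 and a highest value of 10.38 in low prolificacy. The high prolificacy arrays lay close together, within 1.14, while the low prolificacy arrays spanned 3.06. The groups overlapped: low 1 and low 5, at 9.98 and 10.38, lay above the lowest high prolificacy array. Low 2 and low 4 followed at 9.05 and 9.65, and the other 5 low prolificacy arrays lay between 7.32 and 8.33.

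The SLC2A1 level averaged 10.39 ± 0.45 across the high prolificacy arrays (SD, n = 5), against 8.71 ± 1.10 across the low prolificacy arrays (SD, n = 9), and differed by 1.69 ± 0.48 (SE, limma adjusted p = 0.043). The adjusted p was close to the threshold, and 10 of the 14 fits without 1 array lost the call. These were the fits without high 2, high 3, high 4, high 5, low 2, low 3, low 6, low 7, low 8 or low 9, and the limma adjusted p over the 14 fits was 0.015 to 0.13. With the epithelium mean as a covariate the difference was 0.40 ± 0.57 (SE, limma adjusted p = 1.00, unadjusted p = 0.49), and with the smooth muscle mean it was 0.0027 ± 1.11 (SE, limma adjusted p = 1.00, unadjusted p = 1.00).

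SLC2A3, a glucose carrier of high affinity known from neurons, placenta and white blood cells, had the smallest difference and the tightest groups. Its log2 level was 8.95, 9.38, 8.85, 9.83 and 9.68 in high 1 to high 5, against a lowest value of 7.93, a median of 8.40 and a highest value of 8.86 in low prolificacy. Only high 3 and low 4 broke the separation, by 0.0096. The level averaged 9.34 ± 0.43 across the high prolificacy arrays (SD, n = 5), against 8.44 ± 0.27 across the low prolificacy arrays (SD, n = 9), and differed by 0.90 ± 0.18 (SE, limma adjusted p = 0.0080).

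The SLC2A3 call held in each of the 14 fits without 1 array, with a difference between 0.78 and 1.02 and a limma adjusted p of at most 0.027. With the epithelium mean as a covariate the difference was 0.70 ± 0.27 (SE, limma adjusted p = 0.85, unadjusted p = 0.022), and with the smooth muscle mean it was 0.69 ± 0.46 (SE, limma adjusted p = 1.00, unadjusted p = 0.16). The 2 highest SLC2A3 arrays, high 4 and high 5, were not the 2 highest for any of the other 3 carriers. Of 4 neutrophil markers on the array 1 was called, S100A9. Of 6 markers of macrophages and dendritic cells 0 were called by limma (1 at an unadjusted p under 0.05). Over the 6765 genes 10.8% were called. The other neutrophil markers, S100A8, S100A12 and LTF, averaged under the array medians in both groups, and S100A8 differed by 0.16 (limma adjusted p = 0.49). The neutrophil mean was -0.00037 to 1.18 in high and -0.66 to 0.10 in low prolificacy. In high 4 and high 5 it was -0.00037 and 0.76. The part of the neutrophil mean in the SLC2A3 difference was not tested.

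**Figure D2:**
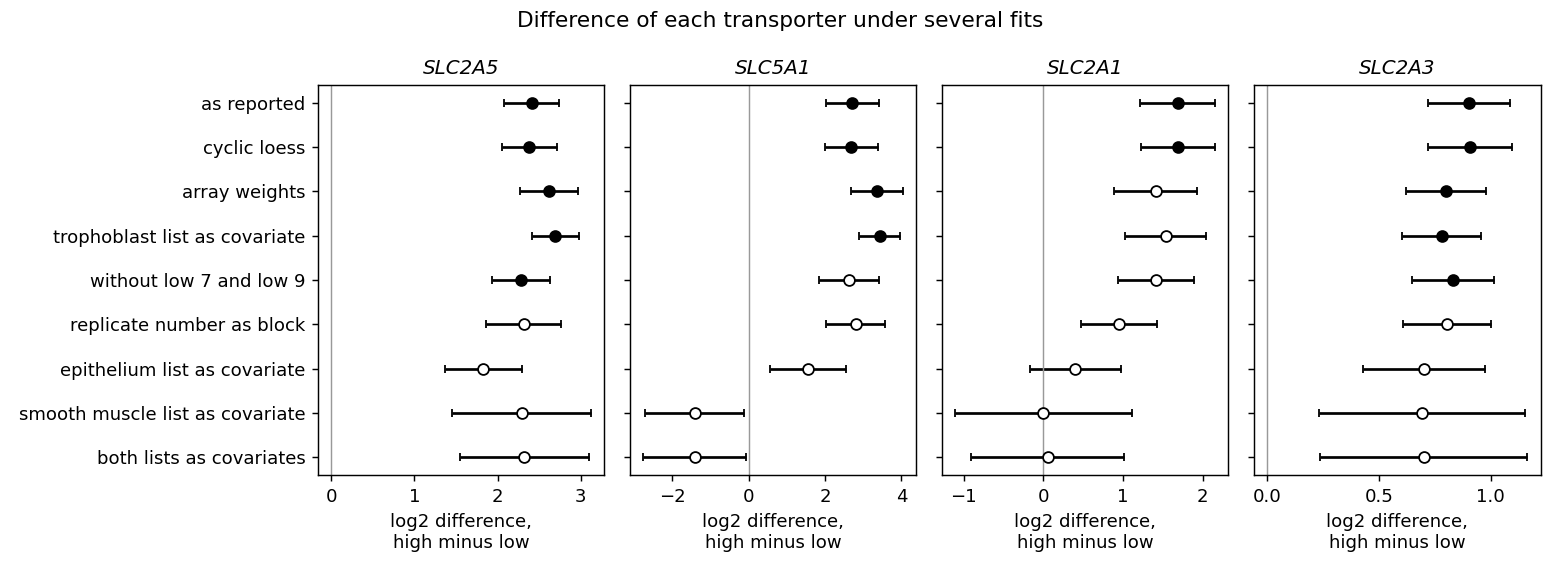
Log2 difference, high minus low prolificacy, of each transporter with its SE under 9 fits (rows); filled points passed an adjusted p of 0.05 and open points did not, and each panel has its own horizontal scale. SLC2A5 and SLC2A3 stay above 0 throughout, and SLC5A1 changes sign with the smooth muscle list. SLC2A1 nears 0 with the smooth muscle list, alone or with the epithelium list. It is at 0.40 with the epithelium list alone and at 1.54 with the trophoblast list.

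The order of the arrays differed from carrier to carrier. High 2 ranked 1 of 14 for SLC2A5 and SLC5A1, high 3 for SLC2A1 and high 4 for SLC2A3. High 4 ranked 2 for SLC2A1 but 5 for SLC2A5 and SLC5A1. Among the low prolificacy sows, low 5 ranked 3 of all 14 for SLC2A1 and 13 for SLC2A5, while low 8 ranked 4 for SLC5A1 and 10 for SLC2A1.

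Within the 9 low prolificacy arrays, 18 relations were computed, 6 between carriers and 12 between a carrier and a list mean. None passed an adjusted p of 0.05 in exact permutation tests (the smallest was 0.12 for Pearson and 0.13 for Spearman), and 2 Pearson and 3 Spearman correlations had an unadjusted p under 0.05. SLC2A5 and SLC2A3 had a Pearson r of 0.78 (exact two-sided permutation p = 0.0066, adjusted p = 0.12) and a Spearman rho of 0.77 (exact permutation p = 0.021, adjusted p = 0.13). Without low 1 and low 9, the arrays farthest from the median of SLC2A5, r was 0.60. SLC2A5 and SLC2A1 had an r of 0.11 (exact permutation p = 0.78, adjusted p = 0.94) and a rho of 0.15 (exact permutation p = 0.71, adjusted p = 0.93), and r was -0.31 without those 2 arrays.

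SLC2A1 and the epithelium mean had a Pearson r of 0.67 (exact permutation p = 0.046, adjusted p = 0.30) and a Spearman rho of 0.83 (exact permutation p = 0.0083, adjusted p = 0.13) in low prolificacy. Without low 7 and low 9, whose epithelium means were -2.32 and -2.11, r was 0.78. For SLC2A5 r was 0.46 (exact permutation p = 0.24, adjusted p = 0.51), rho was 0.25 (exact permutation p = 0.52, adjusted p = 0.92) and r without low 7 and low 9 was -0.057. For SLC5A1 the r with the epithelium mean was 0.28 (exact permutation p = 0.45, adjusted p = 0.74), rho was 0.27 (exact permutation p = 0.49, adjusted p = 0.92) and r was 0.15 without these 2 arrays. For SLC2A3 they were 0.51 (exact permutation p = 0.17, adjusted p = 0.44), 0.20 (exact permutation p = 0.61, adjusted p = 0.92) and 0.15. The epithelium mean was not particular in its relation to SLC2A1. With the smooth muscle mean SLC2A1 had an r of -0.65 (exact permutation p = 0.063, adjusted p = 0.30). Their rho was -0.77 (exact permutation p = 0.021, adjusted p = 0.13), and r was -0.40 without low 5 and low 7. With the trophoblast mean SLC2A1 had an r of 0.64 (exact permutation p = 0.067, adjusted p = 0.30), and r was 0.24 without low 4 and low 5. High prolificacy, with 5 arrays, was too small a group for a correlation.

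**Figure D3:**
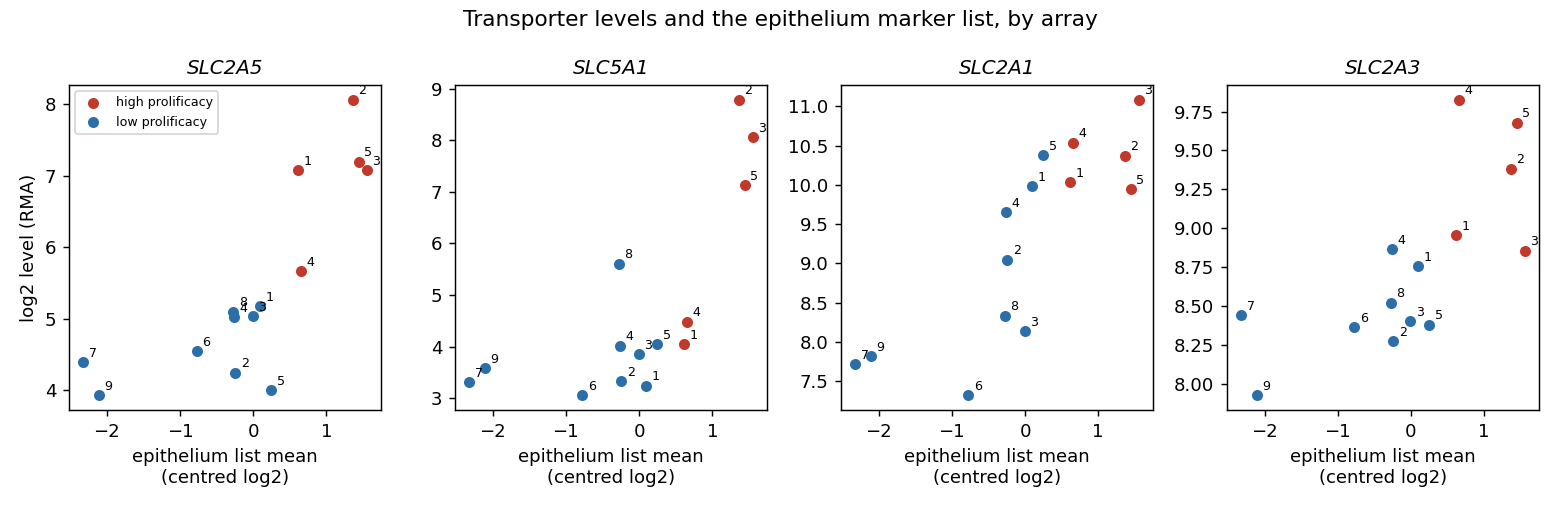
Log2 level of each transporter (vertical axis) against the mean of 16 uterine epithelium markers, centred on the mean of 14 arrays (horizontal axis), with high prolificacy arrays in red, low prolificacy arrays in blue and the replicate number beside each point. The groups occupy separate ranges of the epithelium mean, 0.62 to 1.56 in high and -2.32 to 0.25 in low prolificacy.

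Genes with the most similar pattern were sought by Pearson r over the 14 arrays after each group's mean was taken off. The candidates were other genes among the 12000 brightest probe sets, 4959 for SLC2A5 and SLC5A1 and 4958 for SLC2A1 and SLC2A3. The r values are descriptions: the genes were picked for them and the arrays share tissue composition. The 5 nearest to SLC5A1 were ALS2CL (r = 0.93), SCNN1B (0.93), TCN1 (0.93), CES1 (0.90) and PTPRU (0.89). SCNN1B is the beta subunit of the epithelial sodium channel, TCN1 a vitamin B12 binder of secretions, CES1 a carboxylesterase and PTPRU a receptor phosphatase.

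TCN1 showed the shared shape most widely. Its log2 level was 5.34, 10.89, 10.62, 5.48 and 9.05 in high 1 to high 5, against a lowest value of 3.12 and a highest value of 9.27 in low prolificacy, the highest being low 8. SCNN1B was at 6.42, 8.41, 9.01, 6.24 and 8.44 in high 1 to high 5, against 5.31 to 6.52 in low prolificacy. For both genes, as for SLC5A1, high 2, high 3 and high 5 were the upper high prolificacy arrays and low 8 the upper low prolificacy array. Within low prolificacy alone r with SLC5A1 was 0.93 for ALS2CL, 0.91 for SCNN1B, 0.90 for TCN1, 0.90 for CES1 and 0.53 for PTPRU. In that group low 8 stood apart, at 5.61 for SLC5A1 (next array 4.05). It was at 9.27 for TCN1 (next 4.55) and at 7.06 for ALS2CL (next 6.39). The r values within low prolificacy may therefore rest largely on low 8, and they were not computed without it.

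SLC2A1 had other companions. They were LOC100524999 (r = 0.93), the chitinase-like glycoprotein CHI3L1 (0.93), the chemokine CXCL14 (0.93), the prostaglandin reductase PTGR1 (0.91) and the lysosomal beta-galactosidase GLB1 (0.91). GLB1 was at 10.85, 10.87, 10.24, 10.80 and 9.97 in high 1 to high 5, against 7.60 to 10.48 in low prolificacy. CXCL14 was at 11.21 to 11.69 in high and 6.20 to 11.26 in low prolificacy. In both, as in SLC2A1, low 5 was the highest low prolificacy array and the high prolificacy arrays were tight.

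SLC2A5 was less closely followed, by the transcription factor MYC (r = 0.79), the serine synthesis enzyme PSAT1 (0.73), CCDC25 (0.68), the vesicle linker MLPH (0.68) and the collagen chain COL3A1 (0.68). SLC2A3 was followed by C7H14orf1 (0.92), the membrane skeleton protein EPB41 (0.81), the nuclear pore protein NUP210 (0.78), the DNA repair protein FANCA (0.78) and SLC7A4 (0.78), a member of the family of cationic amino acid carriers. No gene stood among the 5 nearest of more than 1 carrier. With any 1 array left out, the lowest group-centred r was 0.85 for the companions of SLC5A1 and 0.87 for those of SLC2A1. It was 0.73 for those of SLC2A3 and 0.47 for those of SLC2A5.

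**Figure D4:**
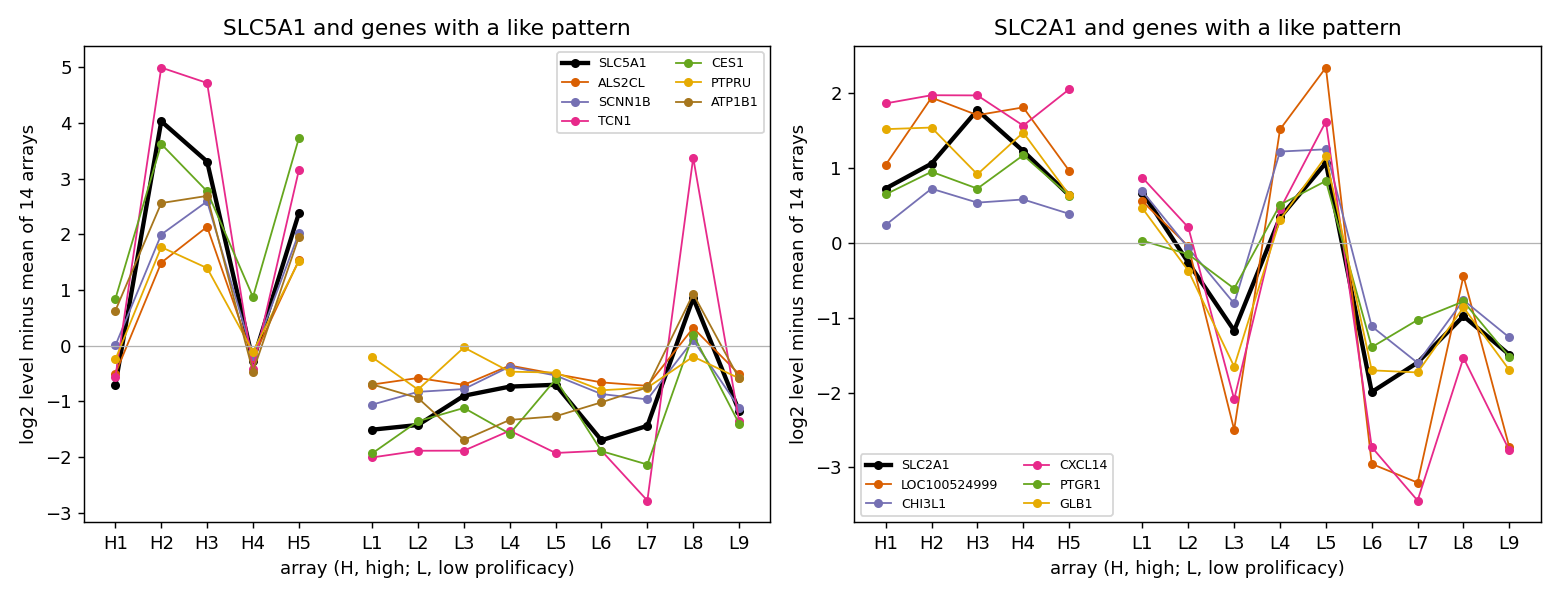
Log2 level minus the mean of 14 arrays (vertical axis) by array (H1 to H5 high, L1 to L9 low prolificacy), for SLC5A1 (left, black) and SLC2A1 (right, black) with the 5 genes nearest to each by group-centred r; ATP1B1, the sodium pump subunit, is added on the left. Among the high prolificacy arrays, the genes on the left are highest in H2, H3 and H5. All of them but PTPRU are higher in L8 than in the other low prolificacy arrays. Those on the right are low in L3, L6, L7 and L9.

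The neighbours of these carriers in sugar handling were read from 6 lists of 66 genes, of which 41 are on the array as a gene of their own, each by its brightest probe set. Of these 41, 5 were called higher and 1 lower in high prolificacy, 14.6% in all, where 10.8% of the 6765 genes were called, 5.34% as higher and 5.42% as lower. The median difference of the 41 was 0.27, and that of the 6765 was 0.073.

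None of the other listed carriers with a probe set of its own was called, where 10.8% of the 6765 genes were. On the array were 5 of 10 listed facilitative carriers and 4 of 10 listed SLC5 carriers, not all of which carry sugar. Lists this short may hold no call at that share. Of 5 further facilitative carriers, 0 were called by limma (1 at an unadjusted p under 0.05). The differences ran from -0.15 for SLC2A4, the insulin-responsive carrier, to 0.68 ± 0.42 (SE, limma adjusted p = 0.40) for SLC2A12. SLC2A8, which had the smallest p of them, averaged 6.73 ± 0.46 across the high prolificacy arrays (SD, n = 5), against 6.24 ± 0.13 across the low prolificacy arrays (SD, n = 9), and differed by 0.49 ± 0.16 (SE, limma adjusted p = 0.078). Without high 1 alone, 1 of the 5 was called. SLC2A2, which carries glucose and fructose in liver, averaged 4.50 ± 0.37 across the high prolificacy arrays (SD, n = 5), against 4.03 ± 0.44 across the low prolificacy arrays (SD, n = 9), under the array medians in both. Of 4 further SLC5 carriers 0 were called by limma (1 at an unadjusted p under 0.05, the iodide carrier SLC5A5, at a difference of 0.58 and a limma adjusted p of 0.19).

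Of 12 genes of the sodium pump and of regulators of glucose carriers, 3 rose and 0 fell, with a median difference of 0.40. Over the 6765 genes, 5.34% were called higher and 5.42% lower. ATP1B1, the beta subunit of the sodium pump, was at 9.998, 11.93, 12.06, 8.90 and 11.32 in high 1 to high 5, against a lowest value of 7.67 and a highest value of 10.30 in low prolificacy, the highest being low 8. Its high prolificacy arrays were ordered into the same upper 3 and lower 2 as those of SLC5A1. This order was not particular to ATP1B1. SGK1, HK1, PFKL and the epithelium mean shared it, while SGK2 did not. ATP1B1 rose 4.89-fold, that is by 2.29 ± 0.51 (SE, limma adjusted p = 0.013), and its other probe set rose by 2.70 ± 0.51 (SE, limma adjusted p = 0.0054). The call of the brighter probe set was lost without high 3 (limma adjusted p = 0.051). It was also lost with the replicate block and with the epithelium mean, the smooth muscle mean or both as covariates. The difference was 1.98 with the epithelium mean and 0.48 with the smooth muscle mean. With the trophoblast mean ATP1B1 differed by 2.89 and kept the call.

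SGK1, a kinase known for raising sodium transport in epithelia, was at 10.73, 11.68, 11.71, 10.17 and 11.57 in high 1 to high 5, against 7.89 to 10.17 in low prolificacy. It rose 3.57-fold (limma adjusted p = 0.018), and the call was lost without high 2 (0.061) or high 3 (0.063). SGK2, a related kinase, averaged 4.29 ± 0.39 across the high prolificacy arrays (SD, n = 5), against 3.24 ± 0.22 across the low prolificacy arrays (SD, n = 9), under the array medians in both, and rose 2.07-fold (limma adjusted p = 0.0019). TXNIP, which takes SLC2A1 off the cell surface, averaged 11.94 ± 0.49 across the high prolificacy arrays (SD, n = 5), against 11.92 ± 0.51 across the low prolificacy arrays (SD, n = 9), and HIF1A, the oxygen-sensing factor known to induce SLC2A1, differed by -0.19 ± 0.38 (SE, limma adjusted p = 0.85).

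No enzyme on the list of those that make and use fructose was called. With 10.8% of the 6765 genes called, so short a list may hold no call. Of 5 genes of the polyol pathway and of fructose use on the array, 0 were called by limma (1 at an unadjusted p under 0.05, ALDOC), with a median difference of 0.27. SORD, which oxidises sorbitol to fructose, averaged 8.38 ± 0.99 across the high prolificacy arrays (SD, n = 5), against 7.68 ± 0.61 across the low prolificacy arrays (SD, n = 9), and differed by 0.69 ± 0.39 (SE, limma adjusted p = 0.34). KHK, which phosphorylates fructose, averaged 6.51 ± 0.25 across the high prolificacy arrays (SD, n = 5), against 6.87 ± 0.41 across the low prolificacy arrays (SD, n = 9), and differed by -0.36 ± 0.20 (SE, limma adjusted p = 0.34). ALDOC, an aldolase, had the smallest p of the list, and differed by 0.59 ± 0.19 (SE, limma adjusted p = 0.077), and 1 gene of the list was called without low 3, with array weights or by a rule of 1.5-fold and an unadjusted p of 0.01. AKR1B1, which reduces glucose to sorbitol, was not measured as a gene of its own here.

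Of 9 genes of hexose phosphorylation and the first steps of glycolysis, 2 rose and 1 fell, with a median difference of 0.26. The shares over the 6765 genes were 5.34% higher and 5.42% lower. PFKL, the liver form of phosphofructokinase, rose 2.34-fold (limma adjusted p = 0.018) and lost the call without high 2 (0.051), high 3 (0.066) or high 5 (0.052). PFKM, the muscle form, fell by 0.94 (log2; limma adjusted p = 0.010), with all 5 high prolificacy arrays under all 9 low prolificacy arrays, as 1.74% of all probe sets had. The call was lost with the replicate block and with the epithelium mean, the smooth muscle mean or both as covariates. The difference was -0.52 with the epithelium mean and -0.077 with the smooth muscle mean. With the trophoblast mean PFKM differed by -0.88 and kept the call. HK1, the hexokinase of most tissues, rose 1.85-fold at a limma adjusted p of 0.048 and lost the call in 19 of 27 alternatives, among them both rescalings and the 2 with the smooth muscle mean, in which its direction turned. Of 6 hexosamine pathway genes, 0 were called by limma (0 at an unadjusted p under 0.05), and the smallest limma adjusted p was 0.45, for GFPT1, the entry enzyme of the pathway.

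**Figure D5:**
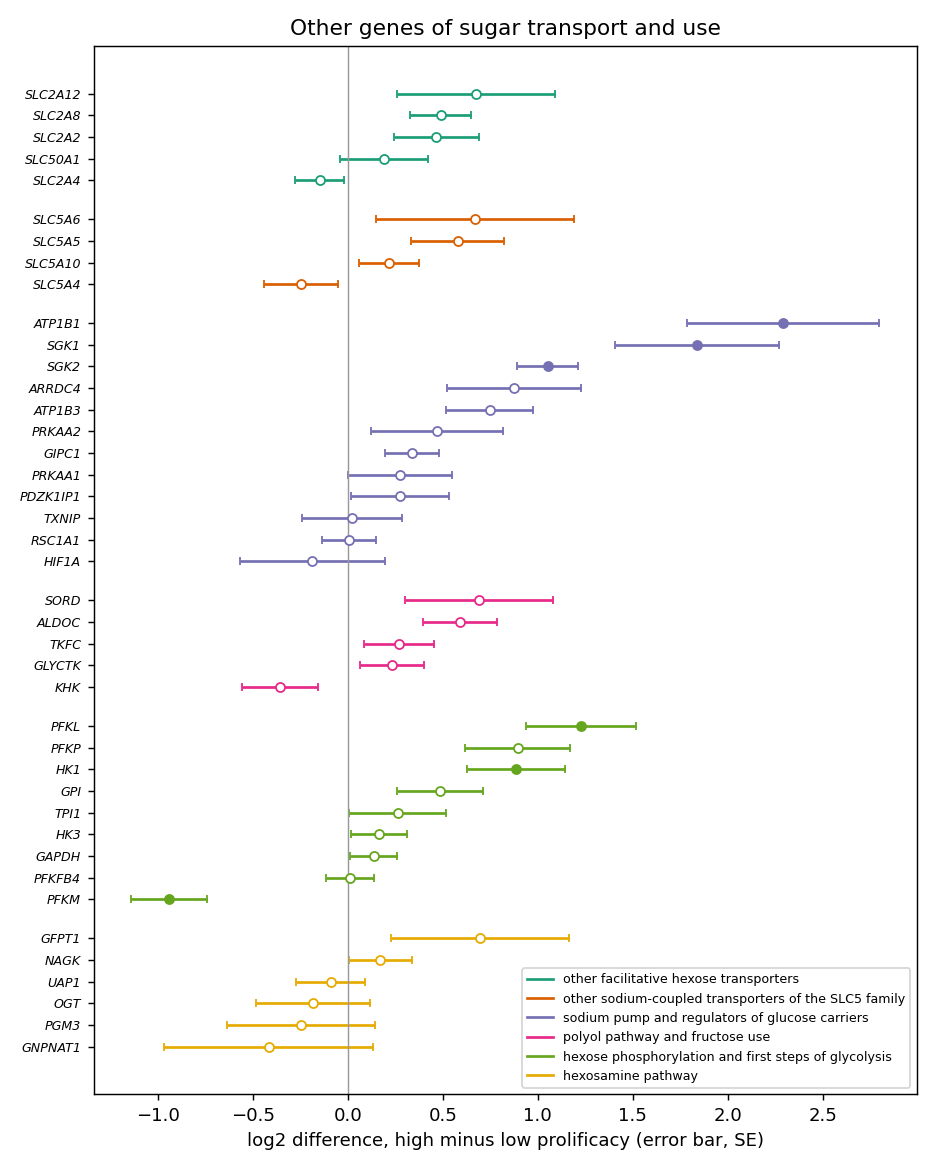
Log2 difference, high minus low prolificacy, with its SE for the 41 genes of 6 sugar handling lists on the array (rows, coloured by list); filled points passed an adjusted p of 0.05. ATP1B1, SGK1, SGK2, PFKL and HK1 are filled on the right of 0 and PFKM on the left.

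Other tissue markers were read in the same fit. Of 11 stromal fibroblast markers 1 was called higher and 4 lower, and of 11 blood endothelium markers 1 higher and 1 lower. The shares over the 6765 genes were 5.34% higher and 5.42% lower. Of 5 red blood cell markers, whose cells carry SLC2A1 in some species, 0 were called by limma (1 at an unadjusted p under 0.05), and their mean was -1.21 to 1.02 in high and -1.53 to 1.80 in low prolificacy. Of 11 trophoblast and fetal membranes markers 0 were called by limma (4 at an unadjusted p under 0.05), and their mean was -0.86 to 3.11 in high and -0.88 to 0.65 in low prolificacy.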

How the data were processed

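The deposited values are log2 levels, 1 column per sow, which the authors obtained by RMA, according to the submitters' processing notes; the version is not given in the sources used here. From the 24123 probe sets, 124 Affymetrix controls were left out. Of the 23999 tested, 10069 had 1 symbol, 198 several and 13732 none. High minus low prolificacy was fitted with limma 3.58.1 under R 4.3.3 (two-sided, no covariate, lmFit then eBayes) and adjusted by Benjamini-Hochberg over all of them. The number of arrays limits the precision. No batch is given in the labels.

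In data simulated for high minus low prolificacy, 200 probe sets among 23999 were changed. The fit recovered 14% of changes of 0.5, 62% of 1, 94% of 2 and 100% of 4 on the log2 scale. It made 7 false calls among 142. Simulated probe sets varied independently, while the real arrays share tissue composition, so this does not measure false calls in the real data.

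Named were the 4 transporters, the 5 genes nearest to each, and from the sugar handling lists the genes called or, with none called, the 1 with the smallest p; others were picked after their values were seen. The members and lists were chosen with earlier results of these data known. Covariates were list means of epithelium, smooth muscle, and trophoblast and fetal membranes markers. Other alternatives were the 12000 brightest probe sets, cyclic loess, array medians subtracted, array weights, the replicate number as a block, other eBayes settings, 1 probe set per gene, another threshold and leaving out each array. Leaving out low 7 and low 9 together was added after seeing the data. The labels do not say whether replicate numbers pair the sows. Deviations of same-numbered high and low arrays had correlations between -0.25 and 0.46, which cannot settle it. High 4 was most like low 4, at 0.46, and the other high arrays were most like low arrays of another number. No sequences were used here.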

Additional observations from a re-analysis of the deposited data

Results flagged for a closer look

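A check for single arrays far from the rest of their group covered 76 groups of values, and 6 were picked out; chance picks about 1 in 20. In low prolificacy, low 8 stood above the other 8 arrays in 4 of them. It was at 5.61 for SLC5A1, where the next array was at 4.05. It was at 10.30 for ATP1B1 (next 8.78), at 7.06 for ALS2CL (next 6.39) and at 9.27 for TCN1 (next 4.55). ALS2CL and TCN1 were picked for their likeness to SLC5A1, so their flags are not separate from its own. Without low 8 the SLC5A1 difference was 2.95 (limma adjusted p = 0.020). Low 3 stood out for PFKL at 8.43 (next 7.80), and low 9 for EPB41 at 7.23 (next 7.56).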

How the results depend on the processing

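Of the 4 transporters, SLC2A5 and SLC2A3 kept their direction in every alternative that held them and lost their calls only with the replicate block or a fit with the epithelium or smooth muscle mean. The number of transporters called was 4, and 2 with the 12000 brightest probe sets, which leave out SLC2A5 and SLC5A1. It was 2 without low 7 and low 9, and 0 with the epithelium mean, the smooth muscle mean, both means or the replicate block. It was 2 to 4 with 1 array left out. With array weights SLC2A1 differed by 1.41, and with the trophoblast mean by 1.54, neither called. Without low 7 and low 9 SLC5A1 differed by 2.62 and SLC2A1 by 1.42, neither called. With both tissue means the differences were 2.32 for SLC2A5, -1.41 for SLC5A1, 0.055 for SLC2A1 and 0.70 for SLC2A3. With the epithelium mean they were 1.83, 1.56, 0.40 and 0.70, and with the smooth muscle mean 2.29, -1.41, 0.0027 and 0.69. With the replicate block they were 2.32, 2.80, 0.95 and 0.80, with limma adjusted p between 0.099 and 0.48. The labels do not say whether the numbers pair the sows. The 4 arrays without a partner number add nothing to that fit's comparison. With 1 array left out the differences were 2.15 to 2.74 for SLC2A5, 2.15 to 3.33 for SLC5A1, 1.51 to 1.89 for SLC2A1 and 0.78 to 1.02 for SLC2A3. Where a difference shrank or turned, the cause was not tested.

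Over all probe sets 1885 were called. The count was 3060 with array weights, 2 with the epithelium mean, 0 with the smooth muscle mean and 0 with both means, 35 with the replicate block, 877 with 1 probe set per gene, of 6765 tested, and 1065 without low 7 and low 9. It was 944 to 2650 with 1 array left out, lowest without high 3 (944) and high 2 (1002). ATP1B1, SGK1, SGK2, PFKL, PFKM and HK1 each lost the call with the epithelium mean, the smooth muscle mean, both means and the replicate block. With the smooth muscle mean SGK1, HK1 and PFKL turned to -0.038, -0.49 and -0.13, and with both means HK1 and PFKL to -0.49 and -0.14. Of 540 list counts under the alternatives, 449 stayed within 1.5 times of the reported count, 72 moved to fewer genes and 19 to more.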
